A study of Caenorhabditis elegans with 12 samples.

Results

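MicroRNA levels of whole worms at day 21 of adulthood were compared with those at day 14, to ask which microRNAs hold steady over the last week sampled of a small RNA time course. The members are the 3 libraries labelled day 21 and the 3 labelled day 14, chosen by their age labels, which makes 6 of the 12 libraries of the series. The other 6 are of days 1 and 7. All worms were of the strain N2, wild type, with no treatment, and the groups differed by age only. Worms were kept as synchronized cohorts, dead or damaged animals were taken off the plates, and the remaining ones were handpicked as pools of whole animals. A library therefore averages over all tissues of the worms still alive at that age, and fewer cells of a type cannot be told apart from less of a microRNA per cell. The study lists the 3 replicates of an age as biological replicates.

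MicroRNAs are short RNAs that Argonaute proteins carry to messenger RNAs, where pairing is led by the seed, bases 2 to 8 of the microRNA, and lowers the output of the target. Each is cut from a hairpin whose 2 arms (5p and 3p) can both yield a product, and usually 1 arm is kept and the other is degraded. In the worm, lin-4 and let-7 time larval development, the miR-35 family acts in the germline and the embryo, and others such as miR-71, miR-34 and miR-239a act on lifespan or stress survival.

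The sequences shown were chosen for the 3 outcomes met in this comparison. miR-83-3p, the worm relative of mammalian miR-29, had the largest difference among microRNAs of at least 100 CPM with an unadjusted p under 0.05. miR-56-3p stayed within the 2-fold bound used below in every edgeR fit tried, and miR-82-3p, of similar abundance, did not pass that bound. The sequences are those of the study's own oligos in DNA letters, a mimic for miR-83-3p and forward primers for the other 2, whose first letters are a tail of the primer, and capitals mark the seed.
miR-83-3p: tAGCACCAtataaattcagtaa
miR-56-3p: gcgtACCCGTAatgtttcc
miR-82-3p: ctgtGAGATCAtcgtgaaa
In WBcel235, *mir-83* (WBGene00003311) lies at chrIV:7841631-7841728 on the plus strand. *mir-56* (WBGene00003284) lies at chrX:13144691-13144787 and *mir-82* (WBGene00003310) at chrX:2435258-2435354, both on the minus strand. The 3 seeds differ from one another.

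The day 21 libraries held 6042140 to 11348110 counts and the day 14 libraries 6652468 to 7388727. The table named 368 mature microRNAs, of which 245 had enough counts to be tested and 123 did not. The tested ones held at least 99.997% of the counts of every library. Levels are counts scaled to a common library total (CPM) after TMM scaling, which corrects library totals for composition, and the values of a microRNA are given in the order of replicates 1, 2 and 3. Fold changes are log2 of day 21 over day 14 from a single quasi-likelihood fit in edgeR, and adjusted p-values are by Benjamini-Hochberg over the 245.

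The arrangement of the libraries has to be stated before any result. On the first principal component of the 12 libraries, which held 79.4% of the variance, day 21 replicates 1, 2 and 3 lay at 7.72, 14.0 and 14.1, and day 14 replicates 1, 2 and 3 at 14.4, 7.83 and 7.99. The library labelled day 21 replicate 1 thus lay with day 14 replicates 2 and 3, and the library labelled day 14 replicate 1 lay with day 21 replicates 2 and 3. The libraries of day 7 lay at -4.11 to -3.24 and those of day 1 at -19.4 to -17.3, each age apart from the others. Whether the labels of these 2 libraries were exchanged was not tested, and the labels were kept as given. The numbers of microRNAs called or steady and the spread within an age all rest on them.

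**Figure D1:**
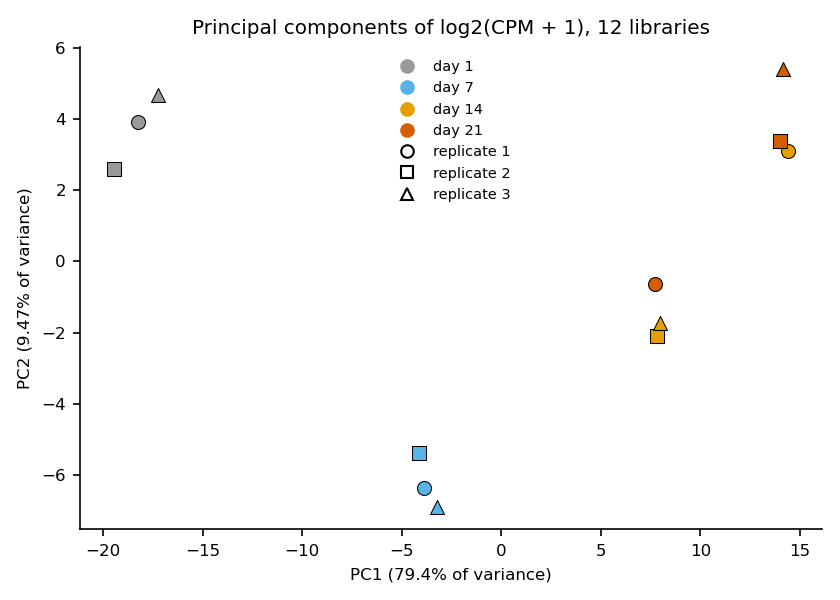
Each point is 1 of the 12 libraries on the first (x axis) and second (y axis) principal components of log2(CPM + 1), in arbitrary units, coloured by age and shaped by replicate number. The circles of replicate 1 of day 21 and of day 14 sit with the other age, at 7.72 and 14.4 on the first component.

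Distances between libraries showed the same arrangement in part. The median absolute log2 difference over the 245 microRNAs was 0.353 to 0.416 between libraries of day 21 and 0.282 to 0.437 between libraries of day 14. Between libraries of different age it was 0.175 to 0.548. Of the 15 pairs, the closest was day 21 replicate 2 with day 14 replicate 1 (0.175), and the next was day 21 replicate 1 with day 14 replicate 3 (0.235). Day 14 replicate 1 was, however, nearer to day 14 replicate 2 (0.384) than to day 21 replicate 3 (0.407). No pair had counts within sampling noise of each other (the chi-square over degrees of freedom was 74.4 for the closest pair and 633 to 2919 for the others), and all 6 were counted as labelled. Reads are not independent molecules, and whether 2 of the libraries come from 1 RNA was not tested. Because of this arrangement, counts and lists are also given without both replicates 1, a choice made after the data were seen. Since those libraries were picked from the same counts, the values without them describe the remaining 4 libraries and are no independent test.

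None of the 245 microRNAs passed an adjusted p of 0.05 between day 21 and day 14 (0.0%). The smallest adjusted p was 0.627 in edgeR, and DESeq2 also called 0. At an unadjusted p under 0.05 there were 12 (4.9%), 9 higher (3.67%) and 3 lower (1.22%) at day 21, and 16 by DESeq2. The median log2 fold change was -0.04, and the median absolute log2 fold change was 0.292, with 180 microRNAs (73.5%) under 0.5 and 9 (3.67%) over 1. For 158 of the 245 (64.5%) the difference between the 2 age means was smaller than the mean SD within an age. The typical 95% interval reached 0.69 to either side on the log2 scale, so a missed threshold by itself leaves room for changes of that size.

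Holding steady was therefore tested directly. A microRNA is called steady here when an equivalence test on the edgeR fit (2 one-sided tests, Benjamini-Hochberg adjusted p under 0.05) put the difference under 2-fold in either direction. This held for 118 of 245 microRNAs (48.2%), and for 0 with a bound of 1.5-fold. The fit takes its spread from all 12 libraries, earlier ages included. In a fit of the 6 libraries alone the number was 103 of 226. Without day 21 replicate 2 the number was 71 of 254. The 118 held 69.6% to 76.6% of the counts of each of the 6 libraries, and their fold changes ran from -0.38 to 0.48. The other 127 were neither called different nor called steady. miR-62 and miR-240-5p lay just inside the bound (adjusted p = 0.0441 each) and miR-46-3p just outside (adjusted p = 0.0507, edgeR fit).

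Steadiness could be shown mostly for abundant microRNAs. Of those over 1000 CPM, 37 of 49 (75.5%) were steady, of those from 100 to 1000 CPM 26 of 45 (57.8%), of those from 10 to 100 CPM 31 of 67 (46.3%), and of those under 10 CPM 24 of 84 (28.6%). The median standard error was 0.26 for steady microRNAs and 0.39 for the rest, and their median levels were 120.4 and 12.03 CPM. Without both replicates 1 the steady numbers in these bins were 19 of 49, 12 of 45, 13 of 67 and 1 of 84, from the highest level down.

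**Figure D2:**
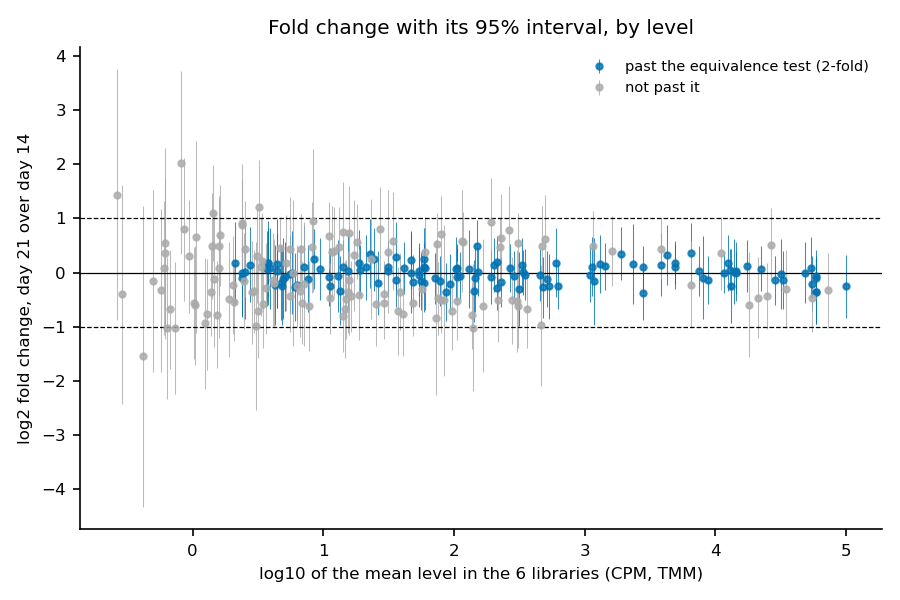
The y axis is the log2 fold change of day 21 over day 14 with its 95% interval (bars), and the x axis is log10 of the mean CPM over the 6 libraries, for 244 microRNAs (miR-4812-3p, with 0 counts at day 21, has no interval). Blue points passed the equivalence test against the 2-fold bound (dashed lines at -1 and 1), and their share grows with the level, from 28.6% under 10 CPM to 75.5% over 1000 CPM.

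Leaving out both replicates 1 changed this. Of 249 microRNAs tested in that fit, 33 passed an adjusted p of 0.05 in edgeR (13.3%), 5 higher and 28 lower at day 21, and 45 were steady (18.1%). The median absolute log2 fold change was 0.498, and 49 microRNAs exceeded 1. The count of 0 calls thus holds for the 6 libraries as labelled and not for the 4 left. With the 2-fold bound, 40 microRNAs remained steady in every edgeR fit tried, those without 1 library and without both replicates 1 included. They held 30.6% to 35.5% of the counts of a library, spanned mean levels of 9.39 to 59102 CPM, and had fold changes of -0.21 to 0.20 with all 6 libraries and -0.25 to 0.24 with 4. Of the 40, 16 were over 1000 CPM, 30 were named 3p arms and 7 were named 5p arms.

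The steadiest microRNA, by how little its interval reached from 0, was miR-36-3p of the miR-35 family. It had 11972, 11899.7 and 11292 CPM at day 21, against 11855, 12555 and 10756 CPM at day 14. The 6 libraries lay within a narrow band with the ages interleaved, and the log2 fold change was -5.7e-05 (SE 0.18), with a 95% interval of -0.38 to 0.38. miR-66-5p, of a cluster with miR-64, miR-65 and miR-229, had 13364, 13246 and 13188 CPM at day 21, against 13795, 12259 and 12431 CPM at day 14, where the libraries of day 21 nearly coincided and day 14 lay on both sides of them. It differed by 0.05 (SE 0.18) on the log2 scale.

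miR-90-3p had 12603, 13945 and 16576 CPM at day 21, against 15543, 13219 and 14441 CPM at day 14, with overlapping ages and a log2 fold change of -0.0027 (SE 0.18). It shares a cluster with miR-238-3p, a microRNA known to promote long life, which had 21337, 24231 and 23255 CPM at day 21, against 23846, 20918 and 20749 CPM at day 14. Day 21 and day 14 overlapped there too, and the log2 fold change was 0.07 (SE 0.19). miR-47-3p had 3268, 2644 and 2670.4 CPM at day 21, against 2624, 2962 and 2453 CPM at day 14, with replicate 1 the highest at day 21 and replicate 3 the lowest at day 14 (0.09, SE 0.18).

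Both arms of the muscle microRNA miR-1 and the neuronal miR-234-3p were among the 10 with the closest intervals. miR-1-3p had 8846, 8182 and 5792 CPM at day 21, against 8025, 8159 and 6185 CPM at day 14, and in both ages replicate 3 was the lowest (0.03, SE 0.22). Its other arm miR-1-5p was also steady (0.02, SE 0.21). miR-234-3p had 324, 385 and 301 CPM at day 21, against 368, 355 and 285 CPM at day 14, with the ages interleaved (0.0042, SE 0.20). The let-7 relatives miR-793 (0.01, SE 0.21) and miR-794-5p (0.02, SE 0.22) complete the 10 with the closest intervals, and all 10 are among the 40 that stayed steady in every edgeR fit with that bound.

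Among the 10 most abundant microRNAs, 8 were steady with 6 libraries, with miR-44-3p and miR-45-3p counted apart. Of the 8, only miR-35-3p, miR-55-3p and miR-56-3p stayed steady in every edgeR fit tried. miR-39-3p, of the miR-35 family, had 73112, 117134 and 81167 CPM at day 21, against 136167, 105835 and 81392 CPM at day 14. Its highest library was day 14 replicate 1 and its lowest day 21 replicate 1, and the ages overlapped (-0.25, SE 0.27, equivalence adjusted p = 0.0231). miR-35-3p was tighter, with 58216, 59573 and 53776 CPM at day 21, against 67714, 60934 and 54399 CPM at day 14 (-0.09, SE 0.19). miR-55-3p had 41772, 63909 and 65659.7 CPM at day 21, against 71538, 52419 and 55225 CPM at day 14, with day 21 replicate 1 the lowest and day 14 replicate 1 the highest of the 6 (-0.06, SE 0.22). It is a member of the miR-51 family, as is miR-56-3p, which had 41997, 58679 and 52456 CPM at day 21, against 65323, 57672 and 53154 CPM at day 14 (-0.20, SE 0.23).

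miR-80-3p, of the broadly expressed miR-58 family, had 66670.2, 47176 and 52839 CPM at day 21, against 47697, 50467 and 58285 CPM at day 14, and day 21 spanned the whole of day 14 (0.09, SE 0.26). miR-72-5p had 38191, 59209.7 and 48356 CPM at day 21, against 70924, 38269 and 36704 CPM at day 14. Its mean was nearly the same at both ages (-0.0014, SE 0.26), but its libraries were split, with day 21 replicate 1 near day 14 replicates 2 and 3 and day 14 replicate 1 the highest of all. It stood at 0.41 on the log2 scale once both replicates 1 were left out (adjusted p = 0.245, edgeR). Counts of miR-44-3p were nearly identical to those of miR-45-3p, so their origin is uncertain, and both were steady at a log2 fold change of -0.35 (SE 0.28).

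The other 2 of the 10 did not pass. miR-71-5p, which promotes long life from neurons, had 79929, 77097 and 35707 CPM at day 21, against 85256, 96709 and 59803 CPM at day 14, where day 21 replicate 3 was the lowest by far (-0.33, SE 0.32, equivalence adjusted p = 0.0538). miR-82-3p, of the miR-58 family, had 46912, 56778 and 34802 CPM at day 21, against 69484, 71924 and 50849 CPM at day 14. Only day 21 replicate 2 reached into the range of day 14, and the interval of the log2 fold change (-0.47) ran from -1.10 to 0.16, past the bound on the lower side.

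**Figure D3:**
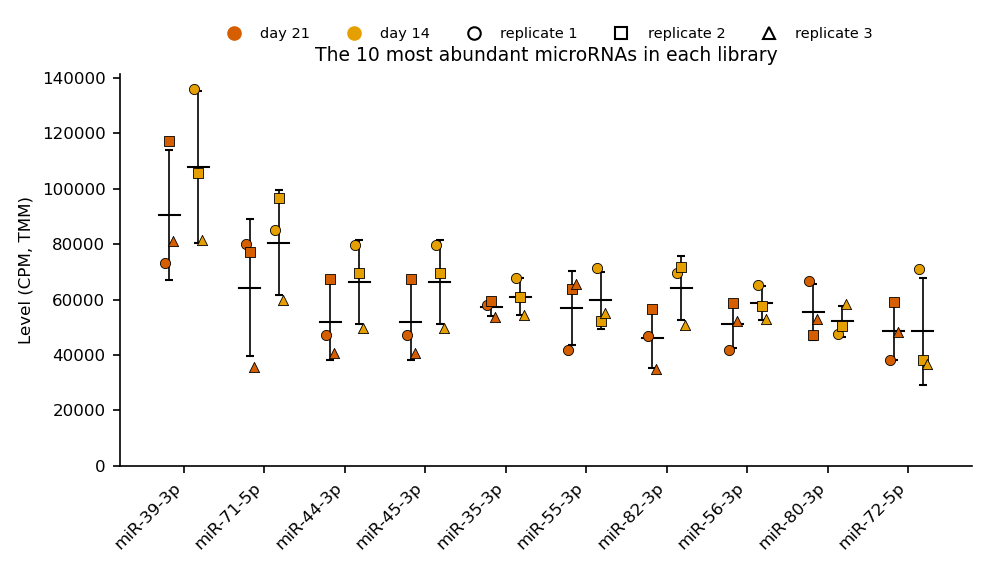
Points are the CPM (y axis, TMM-scaled) of the 10 most abundant microRNAs in each library, day 21 left of day 14, shaped by replicate number, with the mean (line) and SD (bar, n = 3). The ages overlap for all 10, and miR-39-3p spans 73112 to 117134 CPM at day 21 and 81392 to 136167 CPM at day 14.

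By family, the counts below stand against the 48.2% of all tested microRNAs that were steady, and no list was tested as a set. Each list takes both arms of its genes. Of the timing microRNAs, the let-7 family had 9 of 13 arms steady with a median log2 fold change of -0.25, and the lin-4 family 2 of 3 (-0.04), beside a median of -0.04 over all tested. Against 18.1% of all microRNAs without both replicates 1, the let-7 family then had 4 of 13 and the lin-4 family 0 of 3 steady. lin-4-5p had 1485, 932 and 828 CPM at day 21, against 1169, 1217 and 946 CPM at day 14, with overlapping ages (-0.04, SE 0.24). let-7-5p had 723, 353 and 385 CPM at day 21, against 418, 672 and 649 CPM at day 14, with day 21 replicate 1 the highest and day 14 replicate 1 among the low libraries. With 6 libraries it was steady (-0.25, SE 0.28), and without both replicates 1 it was lower at day 21 (-0.93, adjusted p = 0.0228 from edgeR).

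The miR-35 family divided by arm. Of its 3p arms, which carry the shared seed and nearly all of the counts, 7 of 8 were steady (median -0.05), and the exception miR-41-3p lay higher at day 21 in all 3 libraries. Of its 5p arms, 0 of 7 were steady (median -0.72), and their median SD between libraries of an age was 0.806 at day 21 and 1.04 at day 14, against 0.349 and 0.315 over all tested microRNAs. With both replicates 1 left out, 5 of the 7 5p arms were lower at day 21 in edgeR (median -1.43), beside 28 of all 249 microRNAs (11.2%, median -0.11), while 0 of the 8 3p arms passed and 6 of the 8 were steady. The whole family made up 20.9% ± 0.966 of a library at day 21 and 20.9% ± 1.26 at day 14 (SD, n = 3), and day 21 minus day 14 was 1.20 points without both replicates 1.

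The other seed families, with few arms each, had shares on both sides of the background. The miR-51 family, known for its part in pharynx attachment, had 5 of 11 arms steady, the miR-58 family 5 of 11, the miR-64 family 4 of 8, the miR-44 family 3 of 7, the miR-72 family 2 of 6, the miR-46 family 3 of 4, the miR-29 family 2 of 4, the miR-251 family 1 of 3, the miR-75 family 1 of 4 and the miR-2 family 1 of 5. With both replicates 1 left out the numbers were 2 in the miR-51 family, 1 in the miR-58, miR-64, miR-72 and miR-2 families, 2 in the miR-46 family and 0 in the miR-44, miR-29, miR-251 and miR-75 families. With 6 libraries the medians ran from -0.35 in the miR-44 family to 0.39 in the miR-2 family. miR-2-3p had 252, 348 and 494 CPM at day 21, against 315, 207 and 225 CPM at day 14, where only day 14 replicate 1 reached into the range of day 21 (0.55, SE 0.26, interval -0.0013 to 1.10). Mirtrons, cut from introns by splicing, had 1 of 3 steady, and 0 of 3 without both replicates 1.

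MicroRNAs reported to act on lifespan or stress survival had 11 of 16 arms steady, and 2 of 16 without both replicates 1. miR-34-5p had 3305, 4673 and 4113 CPM at day 21, against 5277, 2904 and 2745 CPM at day 14. Its highest library was day 14 replicate 1, and the other 2 of day 14 were the lowest (0.15, SE 0.27, and 0.53 without both replicates 1, adjusted p = 0.223). miR-239a-5p had 137, 232 and 458 CPM at day 21, against 242, 110.0 and 182 CPM at day 14, spread over more than the distance between the ages and not steady (0.63, SE 0.38).

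Lists for single tissues gave 4 of 5 arms steady for neurons, 2 of 2 for muscle, 3 of 3 for the gonad and posterior intestine, 1 of 2 for glia and 0 of 2 for the intestine. Leaving out both replicates 1 gave 1 of 5 for neurons, 2 of 2 for muscle, 1 of 3 for the gonad and posterior intestine and 0 of 2 for glia and for the intestine. In neurons the exception was miR-124-3p, with 11.6, 12.5 and 16.7 CPM at day 21, against 17.3, 8.46 and 5.59 CPM at day 14 (0.39, SE 0.38), scattered widely at day 14. miR-228-5p, of glia, had 19517, 37975 and 36012 CPM at day 21, against 43117, 25401 and 27106 CPM at day 14, low in day 21 replicate 1 and high in day 14 replicate 1 (-0.03, SE 0.30, steady). miR-60-3p, of the intestine, had 185, 68.6 and 158 CPM at day 21, against 68.95, 86.0 and 121 CPM at day 14, where day 21 replicate 2 was close to the lowest of day 14 and the other 2 lay above day 14 (0.58, SE 0.44). Its other arm had 12 counts at day 21, 11 of them in replicate 1, and 3 at day 14.

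Neighbouring genes were read by their more abundant arm with all 6 libraries, and only some of the clusters are given. Over the hairpins with both arms tested, 58.5% of the more abundant arms were steady. Of the arms called steady in these clusters, miR-80-3p, miR-54-3p, miR-37-3p and miR-39-3p were not steady in every edgeR fit tried. In WBcel235 the genes *mir-80*, *mir-238* and *mir-90* lie within chrIII:8865270-8874084 on the minus strand, and all 3 were steady, with fold changes between -0.0027 and 0.09. *mir-56*, *mir-55* and *mir-54*, within chrX:13144691-13145094 on the minus strand, were all steady (-0.20 to 0.33). In the cluster of *mir-35* to *mir-41* at chrII:11537608-11538404 on the plus strand, 6 of 7 were steady. *mir-73*, *mir-74* and *mir-75*, within chrX:2368765-2372549 on the plus strand, had 0 of 3 steady (-0.44 to 0.78).

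miR-73-3p and miR-74-3p of that last cluster had differences of opposite sign. miR-73-3p had 18228, 26469.8 and 18785 CPM at day 21, against 29734, 31614 and 24557 CPM at day 14 (-0.44, SE 0.28), and miR-74-3p had 254, 271 and 467 CPM at day 21, against 275, 129 and 173 CPM at day 14 (0.78, SE 0.38). For both, the ages overlapped through day 14 replicate 1 or day 21 replicate 2, and neither passed the test.

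Over the 82 hairpins with both arms tested, 48 of the more abundant arms (58.5%) and 28 of the less abundant arms (34.1%) were steady. Their median levels were 890 and 7.57 CPM, so that arm and level cannot be told apart here. The median log2 fold change was -0.0007 for the more abundant arms and -0.18 for the less abundant ones. The median log2 ratio of less to more abundant arm was -6.17 ± 0.29 at day 21 and -5.95 ± 0.08 at day 14 (SD, n = 3, exact permutation p = 0.2, two-sided). The difference of the ratios, -0.22, was -0.06 without day 21 replicate 3 and -0.32 without both replicates 1. Over the 35 hairpins whose rarer arm averaged 100 or more counts it was -0.43 (exact permutation p = 0.1, the smallest possible). Without both replicates 1, 21 of the more and 8 of the less abundant arms were steady. Of the 28 microRNAs lower at day 21 in that fit, 20 were less abundant arms, which make up 82 of the 249 tested (32.9%).

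The spread between libraries of one age was close at the 2 ages. The median SD of log2(CPM + 1) was 0.349 at day 21 and 0.315 at day 14, and it was the larger at day 21 for 133 of the 245 microRNAs (54.3%). It was 0.246 at day 21 without both replicates 1 and 0.206 at day 14, each from 2 libraries.

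Spread was widest, among microRNAs of at least 100 CPM, for miR-2214-3p, miR-41-5p, miR-77-5p, miR-70-3p and miR-239a-5p. miR-70-3p had 25168, 10044 and 7685 CPM at day 21, against 10363, 30929.8 and 23451 CPM at day 14. Day 21 replicate 1 stood with the high libraries of day 14 and day 14 replicate 1 with the low libraries of day 21, and the log2 fold change was -0.59 (SE 0.45) with 6 libraries and -1.72 without both replicates 1 (adjusted p = 0.00389 from edgeR). miR-41-5p, an arm of the miR-35 family, had 175, 50.8 and 47.9 CPM at day 21, against 48.3, 224 and 285 CPM at day 14, arranged in the same way (-1.02 with 6 libraries, and -2.47 without both, adjusted p = 5.1e-05 from edgeR). The related arm miR-39-5p, chosen after its values were seen, had 112, 25.1 and 18.1 CPM at day 21, against 15.8, 119 and 143 CPM at day 14, again with both replicates 1 among the other age (-0.83, SE 0.67, and -2.72 without both, adjusted p = 4.9e-05 from edgeR).

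miR-2214-3p had 38.8, 257 and 99.1 CPM at day 21, against 387, 116 and 97.4 CPM at day 14, with the highest and the lowest library both a replicate 1. Its log2 fold change was -0.61 with 6 libraries and 0.59 without both, of opposite sign, and passed the test in neither case. miR-77-5p had 482, 328 and 119.7 CPM at day 21, against 340.4, 925 and 558 CPM at day 14, where day 21 replicate 3 was the lowest and day 14 replicate 2 the highest (-0.97, SE 0.52, and -1.86 without both, adjusted p = 0.0362).

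**Figure D4:**
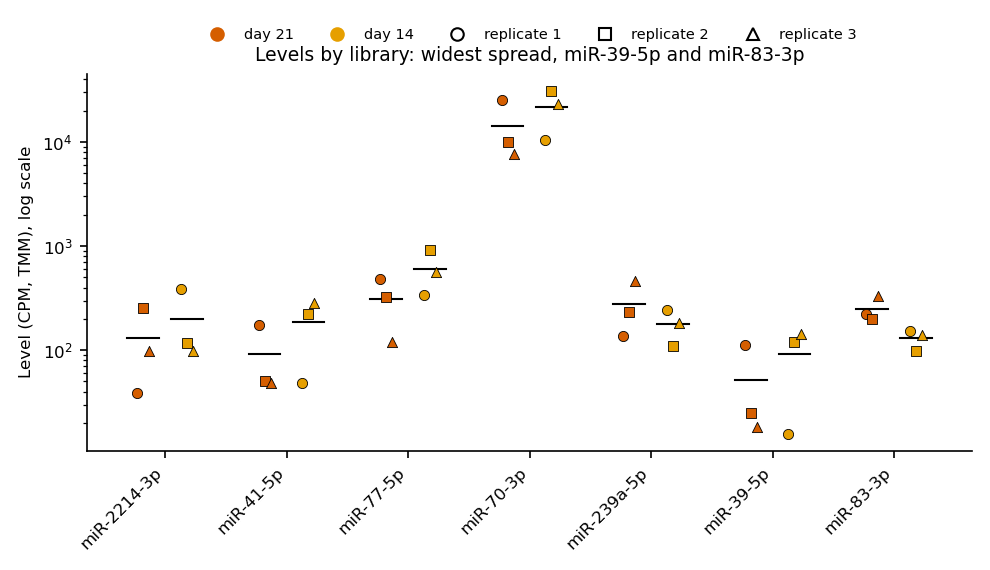
Points are the CPM of 7 microRNAs (y axis, TMM-scaled, log scale) in each library, day 21 left of day 14, shaped by replicate number, with a line at the mean. For miR-70-3p, miR-41-5p and miR-39-5p the circle of day 21 replicate 1 is the highest of its age and that of day 14 replicate 1 the lowest of its age, and for miR-83-3p the 3 libraries of day 21 lie above the 3 of day 14.

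Of 245 microRNAs, 23 had libraries that did not overlap between the ages (9.39%), 16 higher (6.53%) and 7 lower (2.86%) at day 21. The split depends on scaling, with 28 on the higher and 3 on the lower side under scaling by total counts, where the median over all microRNAs was 0.10 in place of -0.04. Without both replicates 1 there were 132 of 249 (53.0%), 53 higher and 79 lower, where 2 libraries an age separate more easily. The number was 73 of 254 without day 14 replicate 1, 64 of 248 without day 21 replicate 1 and 56 of 254 without day 21 replicate 2. It was 49 of 253 without day 14 replicate 3, 37 of 253 without day 21 replicate 3 and 30 of 253 without day 14 replicate 2. Fewer libraries an age leave no overlap in a larger share of orderings, so these counts cannot be read against the 23. The exact permutation p of 3 libraries against 3 cannot go below 0.1, the share of orderings of 6 libraries that leave no overlap. The 9.39% is close to that share, so a lack of overlap does not by itself mark a microRNA as changed.

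Among the arms listed for lifespan or stress survival, 4 of 16 lay higher at day 21 without overlap, beside 6.53% of all microRNAs, and 0 lower. The 4 were miR-83-3p, miR-239a-3p, miR-34-3p and miR-238-5p. All but miR-83-3p are the less abundant arms of their hairpins, whose more abundant arms overlapped between the ages. For *mir-83*, the study had already reported from these data a rise with age. Under scaling by total counts, 3 of the 16 arms were higher and 0 lower without overlap, beside 28 higher and 3 lower of all 245. Without both replicates 1, 4 of the 16 were higher and 4 lower, beside 53 higher and 79 lower of all 249.

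miR-83-3p, the arm with the seed of miR-29, was the largest of these differences. It had 223, 197 and 329 CPM at day 21, against 154, 97.4 and 140.3 CPM at day 14. Every library of day 21 lay above every library of day 14, with day 21 replicate 3 the highest, and the log2 fold change was 0.94 (SE 0.38) with an interval of 0.13 to 1.74. The unadjusted p was 0.0271 in edgeR and the adjusted p was 0.627, and without both replicates 1 the value was 1.07 (adjusted p = 0.182). The other arm of the hairpin, miR-83-5p, had 75.1, 44.7 and 38.5 CPM at day 21, against 42.3, 54.6 and 66.6 CPM at day 14, overlapping and steady (-0.04, SE 0.28), but at -0.66 without both replicates 1 (adjusted p = 0.121).

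Others of the 12 with an unadjusted p under 0.05 were mostly rare. miR-41-3p had 138, 112 and 172 CPM at day 21, against 101, 94.2 and 89.4 CPM at day 14, a clean separation of a modest size (0.57, SE 0.26). miR-44-5p had 122, 108 and 73.7 CPM at day 21, against 135, 190.2 and 198 CPM at day 14, with all of day 21 below day 14 (-0.78, SE 0.29). With both replicates 1 left out it was lower at day 21 (-1.22, adjusted p = 0.0178 from edgeR).

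miR-259-5p (0.71, SE 0.33), miR-67-3p (0.80, SE 0.36), miR-4816-3p (0.68, SE 0.29), miR-243-5p (0.91, SE 0.39), miR-2209c-3p (1.20, SE 0.41), miR-2215-3p (1.10, SE 0.40) and miR-49-5p (-0.80, SE 0.31) were others, all with an adjusted p of 0.627 in edgeR. Of these, miR-2209c-3p (1.74, adjusted p = 0.0242) and miR-49-5p (-1.33, adjusted p = 0.0175) passed in edgeR when both replicates 1 were left out. miR-81-5p had the largest positive fold change (2.03, SE 0.79, adjusted p = 0.627 in edgeR), which rested on 33 counts at day 21 and 6 at day 14. miR-4812-3p had 0 counts at day 21 and 5 at day 14, and was not called in edgeR. With a floor of 3 counts over the group at day 21, it was 2.16-fold lower. That value gives the 5 counts no error and leaves out the spread between libraries, so it is no lower bound.

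Some steady microRNAs also had ages that did not overlap, which shows how small a separated difference can be. miR-795-5p, a let-7 relative, had 199, 183 and 197 CPM at day 21, against 226, 232 and 251 CPM at day 14 (-0.29, SE 0.18), and miR-248 had 624, 598 and 494 CPM at day 21, against 644, 736 and 664 CPM at day 14 (-0.25, SE 0.19). In both, day 21 lay below day 14 by less than the 2-fold bound. miR-50-5p (-0.38, SE 0.23) and miR-243-3p (-0.36, SE 0.25) were of the same kind on the lower side, and miR-239a-3p (0.20, SE 0.23), miR-34-3p (0.23, SE 0.25) and miR-238-5p (0.25, SE 0.26) on the higher side.

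The make-up of the pool was compared by its leading microRNAs and by its evenness. At day 21 the 10 most abundant microRNAs made up 56.5% ± 2.56 of a library, and at day 14 58.9% ± 2.24 (SD, n = 3, exact permutation p = 0.2, two-sided). The effective number of microRNAs, the exponential of the Shannon entropy of the shares, was 32.4 ± 1.37 at day 21 and 30.7 ± 1.45 at day 14 (exact permutation p = 0.2, two-sided). At 3 against 3 these p-values cannot fall under 0.1. Both miR-44-3p and miR-45-3p, with nearly identical counts, enter the shares and the effective number. Whether the same reads were counted for both was not tested. Day 21 minus day 14 was -2.39 points for the share, -1.14 without day 21 replicate 3, -1.43 without day 14 replicate 1, -3.69 without day 21 replicate 2, -3.62 without day 14 replicate 3 and -1.37 without both replicates 1. For the effective number it was 1.65, with 1.06 without day 21 replicate 3, 2.48 without day 14 replicate 3 and 0.998 without both replicates 1.

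The step of day 21 over day 14 was set against the step of day 7 over day 1, which shares no library with it and also contrasts 2 sampled ages. The steps differed for 61 of 245 microRNAs (24.9%, adjusted p under 0.05 in edgeR). The late step was more positive than the early one for 20 (8.16%) and more negative for 41 (16.7%). Of the 61, 20 had fallen and 41 had risen from day 1 to day 7. That early step passed an adjusted p of 0.05 in edgeR for 60 of them. From day 14 to day 21, 37 of the 61 were steady, beside 48.2% of all tested. Without both replicates 1 the steps differed for 80. The smallest adjusted p belonged to miR-38-3p of the miR-35 family, which had 6799, 9519.7 and 8783 CPM at day 21, against 9786, 9518 and 8345 CPM at day 14, with overlapping ages and a late step of -0.14 (SE 0.20). Its early step was 4.50, and the steps differed by -4.64 (SE 0.29, adjusted p = 9e-08 from edgeR).

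miR-42-3p of the same family had a late step of 0.11 (SE 0.20) and an early step of 3.02, and miR-237-5p, a lin-4 relative, had -0.10 (SE 0.29) and -3.09. Similar pairs of steps were seen for other well-known microRNAs. miR-35-3p had a late step of -0.09 and an early step of 2.14, and miR-34-5p 0.15 and 2.87, late and early. let-7-5p had a late step of -0.25 and an early step of -2.50, and lin-4-5p -0.04 and -1.27. The differences of the steps were -2.24, -2.72, 2.25 and 1.23, each with an adjusted p of at most 0.0143 in edgeR. For miR-83-3p the late step was 0.94 and the early step 1.12, and the difference of -0.19 (adjusted p = 0.85) did not pass. miR-234-3p was level at both, with 0.0042 and -0.07.

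**Figure D5:**
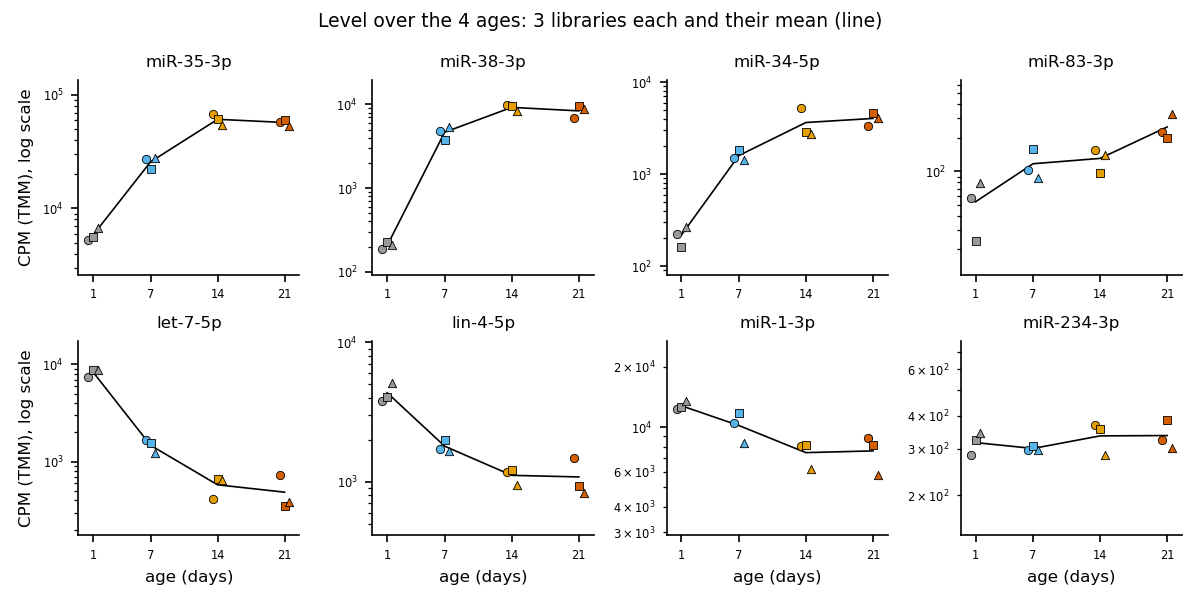
Each panel gives the CPM (y axis, TMM-scaled, log scale) of 1 microRNA in the 3 libraries of each age in days (x axis), shaped by replicate number, with a line through the means. miR-35-3p, miR-38-3p and miR-34-5p climb and let-7-5p and lin-4-5p drop between days 1 and 7, while the late steps from day 14 onward are -0.25 to 0.15 for these 5, and 0.94 for miR-83-3p.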

How the data were processed

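Small RNA of whole N2 worms was sequenced at 4 ages, with 3 libraries each. The authors aligned reads to WBcel215.67 with TopHat, assigned them to known microRNAs with miRDeep and compared ages with DESeq; versions are not given in the sources used here. The deposited main table holds whole counts per microRNA and library, with deposited CPM beside them that equal count over library total within 0.01. The authors' comparison tables, which hold fold changes and p-values, were not used. Of 376 lines, 375 name a microRNA and 1 line with 0 counts does not. The 375 give 368 mature names, and where a name stood on several lines (7 names) the line with the largest total was kept. Gene positions are from WBcel235 by name (352 of 368 matched), never from the authors' build, and neighbouring genes were those within 10 kb on a strand. The printed sequences are the study's oligos.

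In R 4.3.3, edgeR 4.0.16 kept 245 microRNAs (filterByExpr by age, minimum count 10), scaled by TMM and fitted all 12 together with a term for age alone (8 residual degrees of freedom). Standard errors came from the fit's information times the quasi-dispersion. An equivalence test against 2-fold used the same fit and Benjamini-Hochberg adjustment at 0.05. Spread is the SD of log2(CPM + 1), with a pseudocount of 1. Single values were tested by exact permutation (scipy 1.17.1). Alternatives were DESeq2 1.42.0, other scalings and filters, the 6 libraries alone, a replicate term, summed lines and each library left out. Without both replicates 1 was added after the data were seen. Methods were tested on simulated data. The 95% intervals are those of the fit and include the spread between libraries. That spread is estimated for each microRNA over all 12 libraries, earlier ages included, and is not that of the compared ages alone. The standard errors and equivalence tests rest on the same estimate. The floor of 3 counts covers only the counting error of the group without counts.

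Named microRNAs were the 10 most abundant, the 10 with the closest intervals among the steady, up to 15 with an unadjusted p under 0.05, the 5 largest non-overlapping differences in each direction, the 5 with the widest spread at 100 CPM or more, up to 3 of each list by abundance, and a fixed set of well-known ones. miR-39-5p, miR-38-3p, miR-42-3p, miR-795-5p, miR-248, miR-239a-3p, miR-34-3p and miR-238-5p were chosen after their values were seen. The members and lists were chosen with earlier results of these data known.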

Additional observations from a re-analysis of the deposited data

Results flagged for a closer look

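The change of level between day 21 and day 14 differed from that between day 7 and day 1 for 61 of 245 microRNAs, by a test of the difference of the 2 steps in the same edgeR fit (adjusted p under 0.05). Both steps compare 3 libraries with 3, and they have no library in common. Of the 61, 60 also passed an adjusted p of 0.05 in edgeR for day 7 over day 1. From day 14 to day 21, 37 of the 61 were steady, so the 61 are not a count of late changes.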

How the results depend on the processing

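Apart from the fit without both replicates 1, no microRNA passed an adjusted p of 0.05 between day 21 and day 14 in edgeR or DESeq2, with 3 to 39 at an unadjusted p under 0.05, while 33 passed in that fit. The number of steady microRNAs was 118 of 245 with RLE size factors, 110 of 245 with scaling by total counts and 120 of 246 with summed lines. It was 97 of 335 with no filter, 120 of 182 with at least 10 counts in every library and 103 of 226 in a fit of the 6 libraries alone. The share thus moved with the filter. The steady number was 71 of 254 to 127 of 253 with 1 library left out, 0 with the bound of 1.5-fold and 45 of 249 without both replicates 1. Libraries did not overlap for 15 microRNAs with at least 10 counts in every library, for 30 to 73 with 1 library left out and for 132 without both replicates 1. The difference of steps gave 47 to 71 microRNAs in the other settings and 80 without both replicates 1. The median SD at day 14 was 0.206 without both replicates 1. After TMM scaling, day 21 minus day 14 was -2.31 points for the share of the miR-35 family and -8.86 points for that of the 10 most abundant, against 0.0042 and -2.39 points as shares of the counts. With a replicate block the numbers were 0 called, 119 steady and 59 differing steps. By the study's methods each biological replicate took in worms of every time point, so libraries of 1 replicate number may share a source. The deviations of day 21 and day 14 libraries with the same number correlated at -0.785, 0.0005 and -0.0547. The first value is that of both replicates 1, which lay with the other age. A shared source was not tested, and the main fit has age as its only term. Of the values of named microRNAs under the alternatives, 1133 kept their direction and side of the threshold or moved by less than the spread, 54 moved, 8 passed the threshold and 0 reversed while past it. The 3 libraries an age and the spread between them limit what can be called steady, most of all under 10 CPM.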
